A study of Mus musculus with 3 samples.

Results

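The 37 genes described here encode core parts of the spliceosome and heterogeneous nuclear ribonucleoproteins (hnRNPs). They were taken by symbol from the 32285 genes of the deposited matrices, and all 37 were found: 18 hnRNP genes, 7 genes of the Sm ring and 12 other spliceosome genes. Pancreatic islet cells of mice 9 months old were measured by droplet sequencing of single cells, with 1 library each from ASF-KO, SC35-KO and wild type (WT) animals. SRSF1 was formerly called ASF, and SRSF2 was formerly called SC35. Both are SR proteins that bind exons of pre-mRNA and help to recruit the splicing machinery. The labels give neither the deleted exons, nor the cells in which the genes were deleted, nor how many mice were pooled, and no treatment other than age is named. In beta-like cells Srsf1 was at 38.6 CPM in WT against 37.1 in the one labelled ASF-KO and 40.4 in the one labelled SC35-KO, and Srsf2 at 27.8, 53.9 and 26.6 (CPM, the UMIs of a gene scaled to a common total). Tags at the 3′ end can lie outside a deleted part, so this checks nothing. Libraries go by their label here, and “under ASF-KO” means in the library labelled so.

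The spliceosome removes introns from pre-mRNA. Its small nuclear RNAs carry a ring of Sm proteins, and U1 binds the 5′ splice site while SF1, U2AF and then U2 with its SF3A and SF3B proteins mark the branch point and the 3′ splice site. The U5 proteins PRPF8 and SNRNP200 act in the assembled, catalytic particle. HnRNPs coat the nascent RNA and often act against SR proteins in the choice of splice sites, and several of them also serve in transport, stability or translation of mRNA. Most cell types express all of these genes.

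The 3 libraries held 148320213 to 154099078 unique molecular identifiers (UMIs, counts of single captured mRNA molecules). A cell filter removed 40.8% of barcodes from the library labelled ASF-KO, which stood apart from WT (9.53%) and SC35-KO (16.1%), and Scrublet removed 3.13%, 4.31% and 7.58% of the rest as doublets. Cells were gated by hormone and marker UMIs into beta-like (3890 to 5008 cells a library), alpha-like (1114 to 2218), delta-like (262 to 700), gamma-like (112 to 291) and endothelial-like cells (387 to 650). Markers that were not used by the gates (Slc2a2 in beta-like cells, Hhex in delta-like, Pyy in gamma-like cells) were highest in the class they mark. Libraries shared 32 to 45 barcodes, and no cell was counted in more than 1 class. Insulin RNA made up 53.6% of beta-like UMIs in WT, 63.9% under ASF-KO and 63.4% under SC35-KO. In endothelial-like cells, which are not known to make insulin, it was 2.41%, 5.67% and 4.76%.

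With 1 library per genotype no difference between genotypes can be tested. UMIs were therefore summed per class and library and given as CPM, and ratios carry exact 95% intervals that cover counting error only and say nothing of the spread between mice. Because insulin fills much of the total, each ratio to WT is also given relative to the median gene of that class, which lay at 0.750 of its WT level in beta-like cells under ASF-KO (-0.41 on the log2 scale), at -0.43 under SC35-KO and at 0.38 in gamma-like cells under ASF-KO. The other shifts were -0.19 to 0.07. The threshold for calling a gene higher or lower was a 1.5-fold distance from the median gene. All 37 genes were measured in every class, with at least 10 CPM in the mean of the libraries, and the smallest sum was 27 UMIs.

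Per cell the 37 genes together took a small share of the UMIs. In beta-like cells the median cell gave them 0.219% in WT, 0.186% under ASF-KO and 0.172% under SC35-KO, in which a median of 24, 23 and 18 of the 37 genes had a UMI. Median depth in these cells was 22360, 26534 and 17356 UMIs, so the library with the fewest genes seen was also the shallowest. In alpha-like cells the medians were 0.420%, 0.460% and 0.393%, and in delta-like cells 0.454%, 0.493% and 0.474%. Gamma-like cells were at 0.223%, 0.315% and 0.222%, with Ppy and the other hormones at 54.3%, 48.6% and 61.5% of their UMIs. Endothelial-like cells, with hormones at 3.02%, 6.28% and 5.73%, were at 0.458%, 0.483% and 0.491%. Beta-like cells thus had the lowest share in each library, beside the highest hormone share, and within each class the middle 50% of cells of the 3 libraries overlapped.

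**Figure D1:**
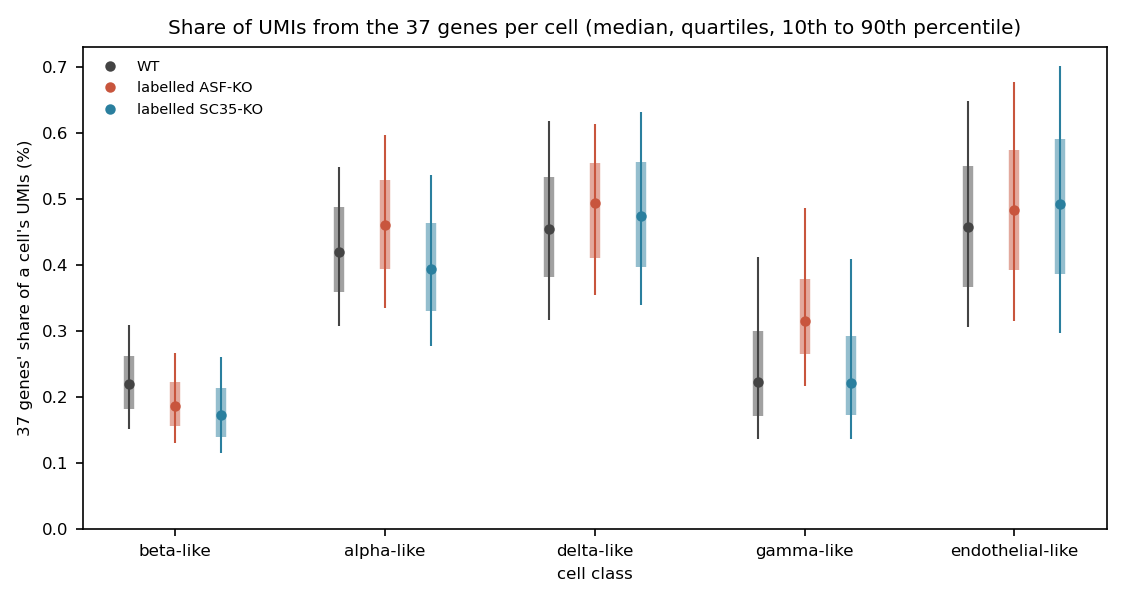
Share of each cell's UMIs that came from the 37 genes (vertical axis, %), by cell class and library; points are medians, thick bars quartiles and thin bars the 10th to 90th percentile of cells. Medians ran from 0.172% in beta-like cells labelled SC35-KO to 0.493% in delta-like cells labelled ASF-KO.

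Most of the 37 genes lay within 1.5-fold of the median gene. Under the label ASF-KO, 1 gene was higher and 1 lower in beta-like cells, beside 8.80% and 7.91% of all 5827 genes measured. Alpha-like cells had 1 higher and 3 lower (3.74% and 6.12% of all genes), delta-like cells 1 and 3 (7.07% and 9.08%), gamma-like cells 5 and 2 (7.73% and 10.6%) and endothelial-like cells 0 and 4 (8.84% and 11.7%). Under SC35-KO the counts were 1 and 0 in beta-like cells (3.50% and 2.37%), 0 and 0 in alpha-like cells (2.38% and 2.35%) and in delta-like cells (4.55% and 4.77%), 1 and 1 in gamma-like cells (4.58% and 6.58%) and 2 and 1 in endothelial-like cells (7.82% and 9.80%). In delta-like cells the lowest under SC35-KO was Snrpa, at -0.51. The median log2 ratio of the 37 genes relative to the median gene lay between -0.02 and 0.11 in these 10 comparisons. With plain CPM in place of the ratio to the median gene, 8 genes were lower and 0 higher in beta-like cells under ASF-KO (33.6% and 2.27% of all genes) and 9 lower and 0 higher under SC35-KO (27.4% and 0.498%), while 13 were higher and 1 lower in gamma-like cells under ASF-KO (30% and 3.78%). The WT gamma-like sum also stood apart in acinar RNA: all 8 acinar markers were detected in each library, at a summed 4649 CPM in WT, 491 under ASF-KO and 63.4 under SC35-KO. In beta-like cells the sums were 422, 295 and 66.4. Malat1, a nuclear RNA, was at 37160.2, 28457 and 18868 CPM in gamma-like cells and was highest in WT in all 5 classes. The part of either in the ratios to WT was not tested.

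**Figure D2:**
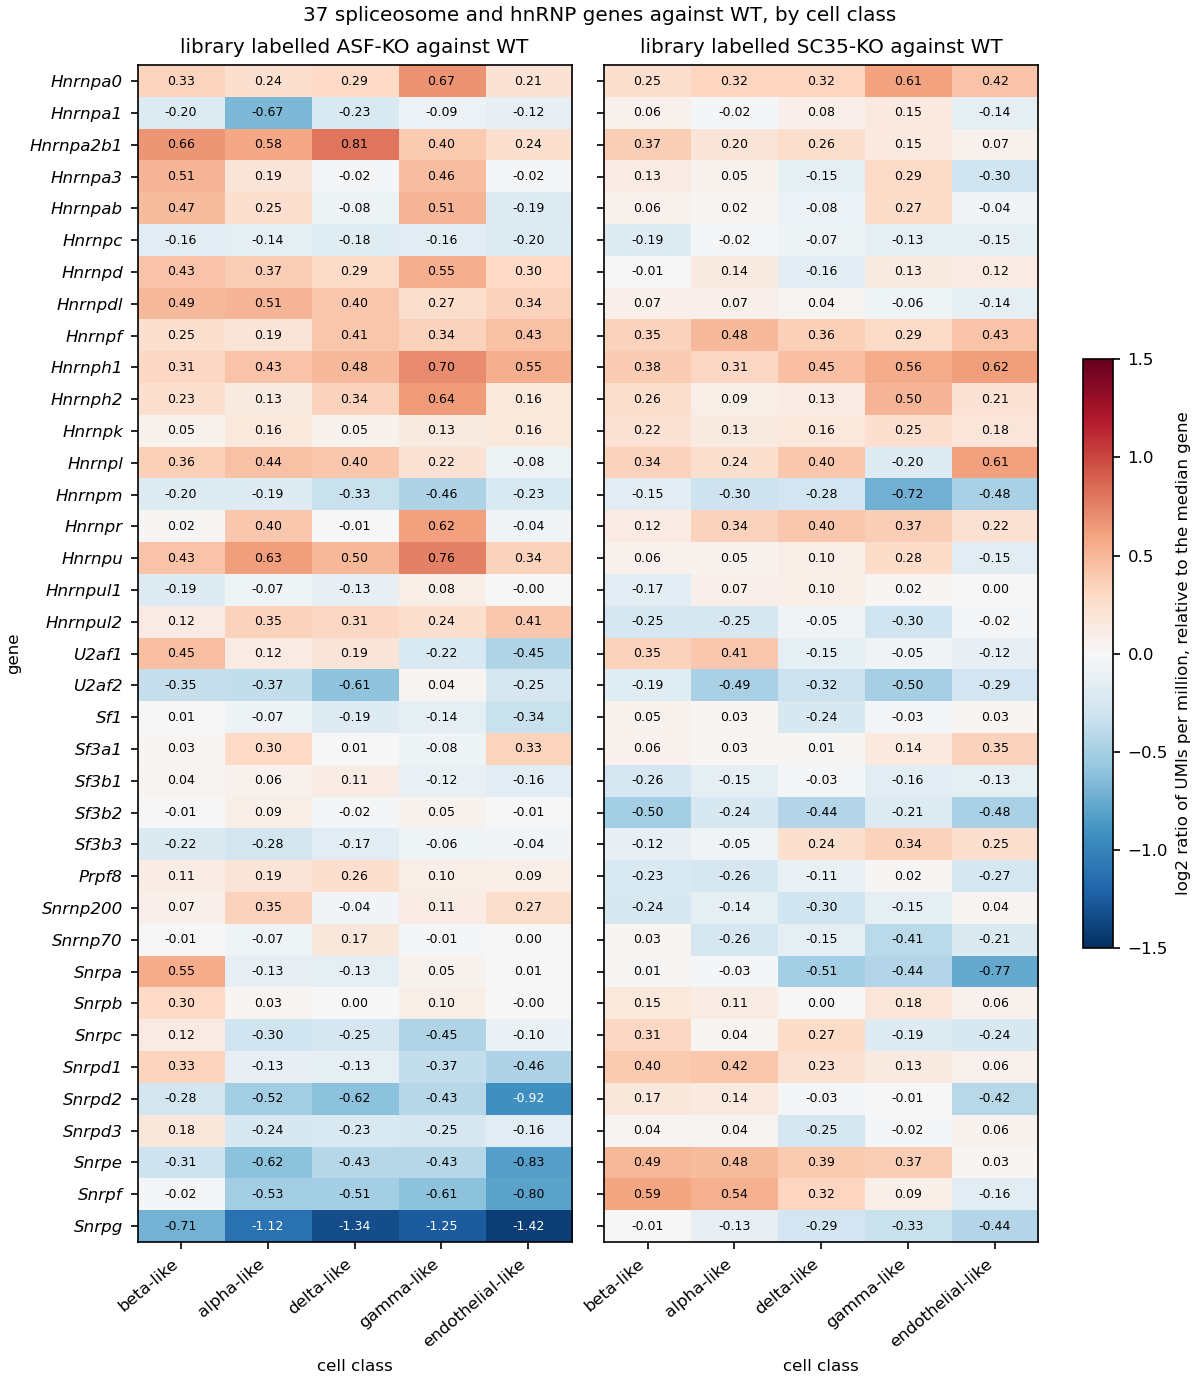
Log2 ratio to WT of each of the 37 genes (rows), relative to the median gene of the class, for the library labelled ASF-KO (left) and SC35-KO (right) in 5 cell classes (columns). The row of Snrpg runs from -0.71 to -1.42 on the left, and the rows of Snrpe, Snrpf and Snrpd2 are below 0 in every class there.

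Promoters of 33 of the 37 genes are in the RefSeq table (GRCm38.p6), and the sequences below belong to 3 Sm genes low under ASF-KO and to the pair of hnRNP genes high there. Each runs 5′ to 3′ up to the start, ending earlier where GENCODE M21 places transcript bases. Snrpg is left out because nearly all of its window is transcribed in that annotation. Capitals mark GCCAAT (the CCAAT box) and GGGCGG (the GC box) on either strand. The windows are chr1:133610292-133610530 (minus strand) for Snrpe, chr10:93589707-93589908 (minus) for Snrpf, chr7:19149588-19149721 (plus) for Snrpd2, chr6:51469895-51470144 (minus) for Hnrnpa2b1 and chr1:178337816-178338065 (minus) for Hnrnpu.
Snrpe: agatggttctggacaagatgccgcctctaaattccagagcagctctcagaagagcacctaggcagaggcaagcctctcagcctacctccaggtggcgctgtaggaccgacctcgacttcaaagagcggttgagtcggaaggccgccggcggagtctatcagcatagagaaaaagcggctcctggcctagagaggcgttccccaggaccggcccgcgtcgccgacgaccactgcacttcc
Snrpf: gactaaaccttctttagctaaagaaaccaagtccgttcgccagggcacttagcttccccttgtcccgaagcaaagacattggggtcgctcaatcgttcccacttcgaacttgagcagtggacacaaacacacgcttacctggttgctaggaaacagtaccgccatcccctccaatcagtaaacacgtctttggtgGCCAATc
Snrpd2: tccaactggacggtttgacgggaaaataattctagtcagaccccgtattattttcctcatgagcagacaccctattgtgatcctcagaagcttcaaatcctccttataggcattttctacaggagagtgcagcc
Hnrnpa2b1: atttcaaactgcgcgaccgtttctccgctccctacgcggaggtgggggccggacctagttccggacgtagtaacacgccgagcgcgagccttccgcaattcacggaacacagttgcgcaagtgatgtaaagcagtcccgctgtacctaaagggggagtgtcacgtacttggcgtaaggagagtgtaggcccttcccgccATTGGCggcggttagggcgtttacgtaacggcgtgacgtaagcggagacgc
Hnrnpu: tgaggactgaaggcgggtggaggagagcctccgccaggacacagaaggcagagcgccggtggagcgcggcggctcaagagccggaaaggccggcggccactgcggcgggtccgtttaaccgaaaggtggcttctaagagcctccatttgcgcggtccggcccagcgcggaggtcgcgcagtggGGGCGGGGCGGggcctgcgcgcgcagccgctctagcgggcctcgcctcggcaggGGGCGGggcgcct
Snrpf has 1 match to GCCAAT and Hnrnpa2b1 has 1, on the reverse strand, while Hnrnpu has 3 matches to the GC box. CCAAT without the G was not searched, and the Snrpf stretch holds further, unmarked CCAAT on both strands. The printed stretches of Snrpe and Snrpd2 hold none of the 5 motifs searched. Over the full 250 bases, 21 of the 33 members (63.6%) had GGGCGG, against 32.7% of all 32851 windows in the table, 14 (42.4%) had GCCAAT, against 13.5%, and 8 (24.2%) had CCGGAAG (an ETS motif), against 6.91%. CACGTG was in 3 (9.09%, against 6.02%) and TATAAA in 3 (9.09%, against 12.4%). These are counts of letters on both strands, and housekeeping promoters in general are rich in such motifs. Only the first window listed for each member was counted, while the 32851 hold every window listed for each gene, so the shares differ in unit.

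Several Sm genes were low under ASF-KO. The Sm proteins B, D1, D2, D3, E, F and G close into a ring on the U1, U2, U4 and U5 snRNAs and are needed to build the snRNPs. Snrpg (ENSMUSG00000057278, chromosome 6, 86371304 to 86379328 in GRCm38, protein coding) was at 72.7 CPM in WT, 33.2 under ASF-KO and 53.4 under SC35-KO in beta-like cells. In alpha-like cells it was at 215, 101 and 173, in delta-like cells at 229, 90.8 and 189, in gamma-like cells at 113, 61.8 and 84.3 and in endothelial-like cells at 293, 113 and 227. The level labelled ASF-KO was the lowest of the 3 in all 5 classes, and WT the highest. Relative to the median gene the ratio of ASF-KO to WT was 0.610 (0.586 to 0.634) in beta-like cells, 0.459 (0.428 to 0.492) in alpha-like cells, 0.396 (0.335 to 0.467) in delta-like cells, 0.421 (0.334 to 0.525) in gamma-like cells and 0.374 (0.314 to 0.445) in endothelial-like cells. It was the lowest of the 37 genes in each class. Under SC35-KO the log2 ratio to WT was -0.01, -0.13, -0.29, -0.33 and -0.44 in the same order of classes.

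Snrpe, Snrpf and Snrpd2 had log2 ratios of the same sign that were nearer 0. Snrpe, the E subunit, was at 43.1, 26.0 and 44.9 CPM (WT, ASF-KO and SC35-KO) in beta-like cells, at 115, 76.8 and 141 in alpha-like cells, 97.9, 72.9 and 129 in delta-like cells, 59.4, 57.3 and 71.7 in gamma-like cells and 143, 83.1 and 153 in endothelial-like cells. Here too the value under ASF-KO was the lowest in every class, but that under SC35-KO was the highest. Counting intervals of WT and SC35-KO overlapped for Snrpe in beta-like, gamma-like and endothelial-like cells. The log2 ratio of Snrpe, ASF-KO to WT, relative to the median gene was -0.31, -0.62, -0.43, -0.43 and -0.83. Snrpf, the F subunit, was at 45.8, 33.9 and 51.2 in beta-like cells, 171, 122 and 217 in alpha-like cells, 146, 103 and 184 in delta-like cells, 91.7, 77.9 and 91.4 in gamma-like cells and 102, 60.3 and 95.8 in endothelial-like cells. The log2 ratio was -0.02, -0.53, -0.51, -0.61 and -0.80, so beta-like cells differed from the median gene by little. Snrpd2 was at 75.4, 46.7 and 62.9, at 148.2, 106 and 143, at 169, 111 and 166, at 76.1, 73.4 and 70.8 and at 132, 71.7 and 103, with log2 ratios of -0.28, -0.52, -0.62, -0.43 and -0.92. In gamma-like cells the 3 libraries overlapped in their counting intervals for Snrpe, Snrpf and Snrpd2. The median gene lay at 0.38 there, so the gamma-like ratios of Snrpe and Snrpd2 under ASF-KO depend mostly on the scaling.

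Snrpb, which encodes the B subunit, was at 38.7, 35.7 and 31.9 CPM in beta-like, 90.9, 95.3 and 86.1 in alpha-like cells, 97.1, 97.6 and 98.1 in delta-like cells, 55.6, 77.3 and 58.8 in gamma-like cells and 214, 221 and 235 in endothelial-like cells. Relative to the median gene its log2 ratio of ASF-KO to WT was at most 0.30, in beta-like cells, where Snrpb was below WT in plain CPM. On the same scale Snrpd1 ranged from -0.46 in endothelial-like to 0.33 in beta-like cells and Snrpd3 from -0.25 in gamma-like to 0.18 in beta-like cells. Of the 7 Sm genes, 3 lay above the median gene in beta-like cells, 1 each in alpha-like, delta-like and gamma-like cells and 0 in endothelial-like cells.

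**Figure D3:**
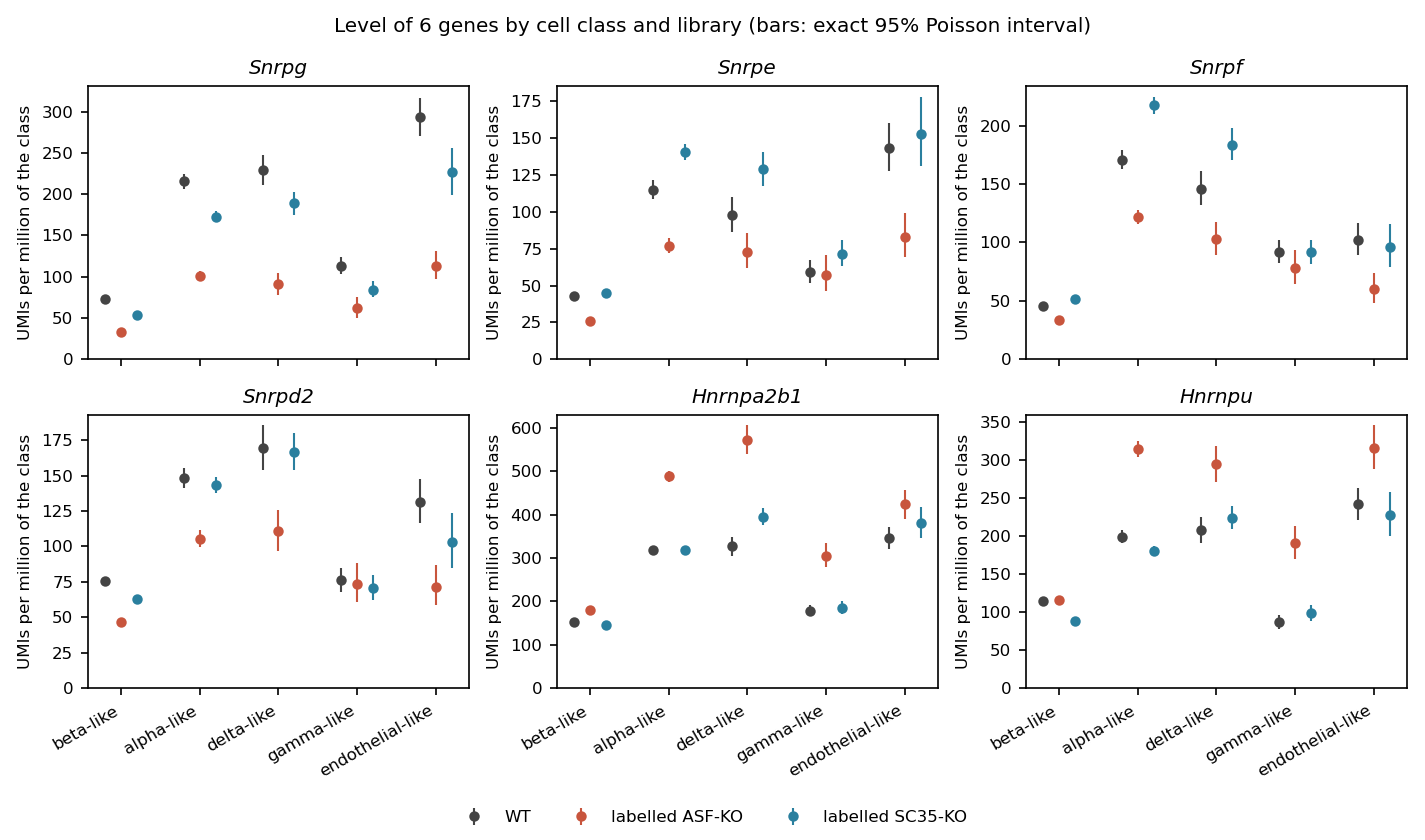
CPM (vertical axis, from 0) of 4 Sm genes and 2 hnRNP genes in 5 cell classes, with exact 95% Poisson intervals; colours are the 3 libraries. For Snrpg the point labelled ASF-KO is the lowest in each class (33.2 against 72.7 in WT in beta-like cells), and for Hnrnpa2b1 it is the highest (572 against 327 in delta-like cells).

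Transcript length, taken as the median over a gene's principal transcripts in GENCODE M21 (all basic ones where none is marked), moved with these ratios outside beta-like cells. Over all genes, those under 750 bases had a median log2 ratio of ASF-KO to WT, relative to the median gene, of -0.11 in beta-like cells, -0.40 in alpha-like cells, -0.37 in delta-like cells, -0.46 in gamma-like cells and -0.49 in endothelial-like cells. For transcripts of 4000 bases or more it was -0.08, 0.09, 0.05, 0.11 and 0.14. The bins in between had medians within this range in the other 4 classes, but in beta-like cells genes of 750 to 1000 bases were at 0.17 and those of 1000 to 1500 bases at 0.15. Snrpe (503 bases), Snrpf (861), Snrpg (1055) and Snrpd2 (1420) have short transcripts. Against the median gene of like length, Snrpe had log2 ratios of -0.20, -0.22, -0.06, 0.04 and -0.34 in beta-like cells, alpha-like, delta-like, gamma-like and endothelial-like cells, so that its sign turned in gamma-like cells. In alpha-like and endothelial-like cells Snrpe was then no longer past 1.5-fold. Snrpg was at -0.87, -1.04, -1.29, -1.14 and -1.26, Snrpf at -0.19, -0.40, -0.46, -0.46 and -0.61 and Snrpd2 at -0.43, -0.44, -0.58, -0.32 and -0.76. Snrpf was thus further below in beta-like cells than relative to all genes (-0.02) and nearer in gamma-like cells, where it was no longer past 1.5-fold. Nor was Snrpd2 in delta-like cells. Under SC35-KO the trend ran the other way in beta-like and alpha-like cells, with 0.27 and 0.22 for transcripts under 750 bases and -0.10 and -0.04 for those of 4000 or more. The part of transcript length in the Sm ratios beyond this was not tested.

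**Figure D4:**
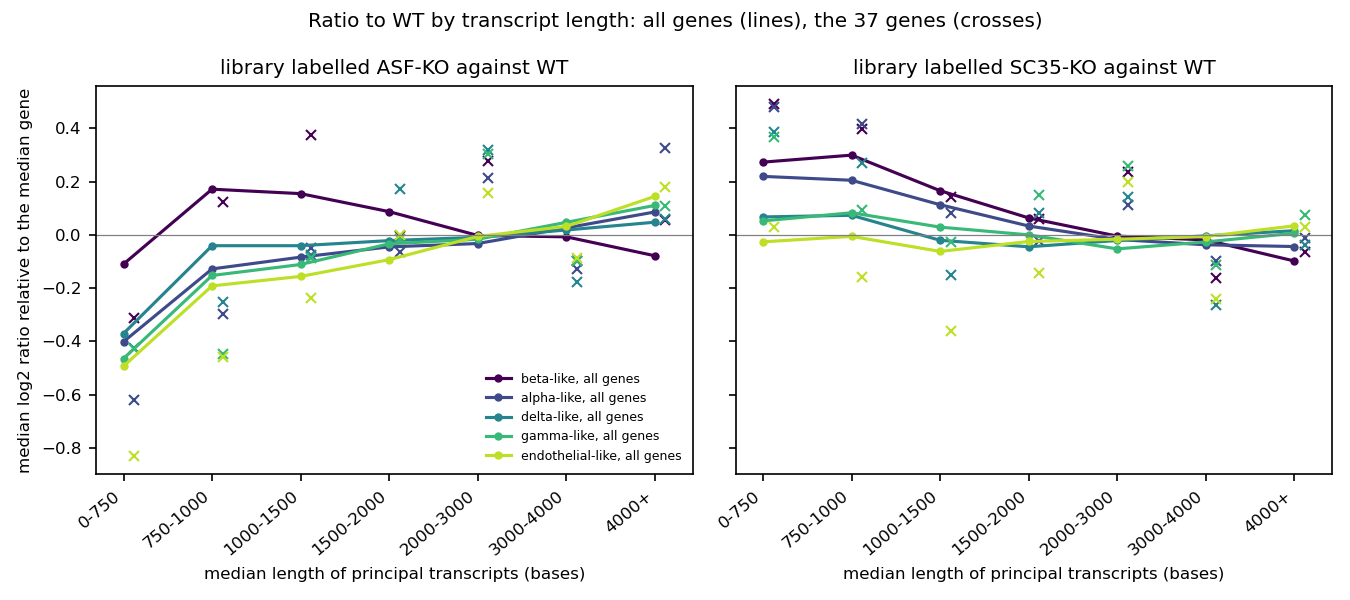
Median log2 ratio to WT relative to the median gene (vertical axis) by the median length of a gene's principal transcripts in bases (horizontal axis); lines are all genes of a class, crosses the median of the members in that bin. On the left, labelled ASF-KO, the lines of 4 classes start between -0.37 and -0.49 under 750 bases and end between 0.05 and 0.14 from 4000 bases.

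Near-identical processed copies of Sm and hnRNP genes are common in mammalian genomes, and reads that fit a copy as well may not be counted, so levels of these genes are uncertain to that extent. Counting by strand is not given in the sources used here, and Snrpg overlaps Gm44941 and Hnrnpu overlaps Cox20 on the opposite strand. In GENCODE M21 the only member that overlaps another gene on the same strand is Hnrnpm, which shares 1169 bases with March2.

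The hnRNP genes included the members highest under ASF-KO. Hnrnpa2b1, whose proteins bind RNA in splicing and in mRNA transport, was at 152 CPM in WT, 181 under ASF-KO and 146 under SC35-KO in beta-like cells, at 318, 489 and 319 in alpha-like cells, 327, 572 and 395 in delta-like cells, 179, 305 and 185 in gamma-like cells and 346, 423 and 381 in endothelial-like cells. The library labelled ASF-KO was the highest in all 5 classes. The ratio of ASF-KO to WT relative to the median gene was 1.58 (1.55 to 1.62), 1.499 (1.44 to 1.56), 1.75 (1.60 to 1.91), 1.32 (1.17 to 1.48) and 1.18 (1.06 to 1.32). Under SC35-KO the log2 ratios were 0.37, 0.20, 0.26, 0.15 and 0.07. Hnrnpu, a large hnRNP that also binds chromatin, was at 115, 116 and 88.9 in beta-like cells, 199, 314 and 180.4 in alpha-like cells, 207, 294 and 224 in delta-like cells, 86.7, 191 and 98.3 in gamma-like cells and 242, 316 and 227 in endothelial-like cells. Its log2 ratio under ASF-KO was 0.43, 0.63, 0.50, 0.76 and 0.34, and its intervals in WT and under ASF-KO overlapped in plain CPM in beta-like cells.

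Hnrnpa1, a splicing repressor that competes with SRSF1 at splice sites, did not move like Hnrnpa2b1. It was at 48.5, 31.7 and 37.4 CPM in beta-like cells, at 191, 123 and 164 in alpha-like cells, 136, 116 and 145 in delta-like cells, 52.8, 64.4 and 54.8 in gamma-like cells and 118, 112 and 112 in endothelial-like cells. In alpha-like cells it was past 1.5-fold relative to the median gene under ASF-KO, at 0.629 (0.588 to 0.673), and the other classes ranged from -0.23 to -0.09 on the log2 scale. Hnrnpa3 and Snrpa were next after Hnrnpa2b1 in beta-like cells (0.51 and 0.55), and Hnrnpdl in alpha-like cells (0.51). Hnrnpa0 was among the highest members in gamma-like cells under both labels, at 40.4 CPM in WT, 83.7 under ASF-KO and 57.6 under SC35-KO.

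The F/H genes, whose proteins bind G-rich elements, stood above the median gene under both labels in all 5 classes, in comparisons that share the WT library. Hnrnph1 was at 84.5, 78.7 and 81.2 CPM in beta-like cells, at 145, 200.1 and 158 in alpha-like cells, 135, 188 and 185 in delta-like cells, 59.4, 126 and 81.7 in gamma-like cells and 105, 158 and 169 in endothelial-like cells. Outside beta-like cells WT was the lowest library in each class. The log2 ratios of Hnrnph1 relative to the median gene were 0.31, 0.43, 0.48, 0.70 and 0.55 under ASF-KO and 0.38, 0.31, 0.45, 0.56 and 0.62 under SC35-KO. Hnrnpf ranged from 0.19 to 0.43 and from 0.29 to 0.48, and Hnrnph2 from 0.13 to 0.64 and from 0.09 to 0.50. In plain CPM these 3 genes were below WT in beta-like cells under both labels, so their direction there depends on the scaling. Hnrnpl passed 1.5-fold under SC35-KO in endothelial-like cells (63.2 in WT, 61.6 under ASF-KO and 101 under SC35-KO), where its sum was 113 UMIs. Hnrnpm was the lowest member in gamma-like cells under SC35-KO, with 73.8, 69.5 and 41.9 CPM and a ratio of 0.606 (0.494 to 0.742). Hnrnpc, the core hnRNP of nascent RNA, lay slightly below the median gene in all 10 comparisons, from -0.20 to -0.02.

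Among factors of the 3′ splice site, U2af2, the large U2AF subunit that binds the polypyrimidine tract, was at 31.5, 18.6 and 20.5 CPM in beta-like, 63.7, 50.7 and 39.8 in alpha-like cells, 61.8, 40.6 and 49.8 in delta-like cells, 35.6, 47.6 and 23.5 in gamma-like cells and 74.0, 64.3 and 63.6 in endothelial-like cells. WT was the highest library in 4 of the 5 classes and ASF-KO in gamma-like cells. The log2 ratios were -0.35, -0.37, -0.61, 0.04 and -0.25 under ASF-KO and -0.19, -0.49, -0.32, -0.50 and -0.29 under SC35-KO. With each cell thinned to 2000 UMIs the delta-like value under ASF-KO was 0.0029 in place of -0.61. Its partner U2af1, which reads the AG of the intron end, ranged from -0.45 in endothelial-like to 0.45 in beta-like cells under ASF-KO and from -0.15 to 0.41 under SC35-KO. Sf1, which binds the branch point first, was between -0.34 and 0.05 in all 10 comparisons.

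In the U2 proteins, Sf3b1, which holds the branch point helix and is known for mutations in blood cancers, stayed near the median gene under ASF-KO, from -0.16 to 0.11. It was at 100.4, 77.6 and 62.2 CPM in beta-like, 149, 159 and 118 in alpha-like cells, 192, 208 and 190 in delta-like cells, 101, 120.4 and 84.0 in gamma-like cells and 239, 221 and 228 in endothelial-like cells. Under SC35-KO it ranged from -0.26 to -0.03. Its complex partner Sf3b2 was the lowest member in beta-like cells under SC35-KO, with 113 CPM in WT, 84.5 under ASF-KO and 59.1 under SC35-KO and a ratio relative to the median gene of 0.705 (0.682 to 0.728). Sf3b2 had log2 ratios of -0.50, -0.24, -0.44, -0.21 and -0.48 under SC35-KO, against -0.02 to 0.09 under ASF-KO. Sf3a1 and Sf3b3 stayed between -0.28 and 0.35.

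Of the U1 proteins, Snrnp70, which contacts SR proteins at the 5′ splice site, was at 116, 86.9 and 87.7 CPM in beta-like, 211, 206 and 155 in alpha-like cells, 179, 201 and 162 in delta-like cells, 109.7, 141 and 77.4 in gamma-like cells and 111, 115 and 100.3 in endothelial-like cells. Under ASF-KO its log2 ratios lay between -0.07 and 0.17, and under SC35-KO between -0.41 and 0.03. Snrpa was the lowest member under SC35-KO in endothelial-like cells at 39.3, 40.9 and 24.2 CPM, a ratio of 0.587 (0.365 to 0.915) that rests on 27 UMIs. Snrpc ranged from -0.45 to 0.31. The U5 members Prpf8 and Snrnp200 stayed between -0.30 and 0.35 under both labels.

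Under SC35-KO 3 Sm genes were the highest members in beta-like cells, Snrpf at 1.51 (1.45 to 1.57), Snrpe at 1.41 (1.35 to 1.47) and Snrpd1 at 1.32 (1.24 to 1.40) times WT relative to the median gene. Snrpf was the only member past 1.5-fold there. Relative to genes of like length it was at 0.30 on the log2 scale, against 0.59 relative to the median gene. Between the 2 libraries labelled KO, in beta-like cells, 3 of the 37 genes were higher and 0 lower under SC35-KO than under ASF-KO, beside 6.56% and 7.19% of all genes. They were Snrpe (1.73, 1.65 to 1.82), Snrpg (1.61, 1.54 to 1.69) and Snrpf (1.52, 1.46 to 1.59). Relative to genes of like length 1 member was higher and 0 lower by 1.5-fold, beside 5.58% and 6.94% of all genes.

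Cell classes were measured in all 3 libraries, so differences between them could be tested. Sums of the 5 classes in each library were fitted together in edgeR's quasi-likelihood test with the library as a block, over 12797 genes with Benjamini-Hochberg adjustment, and levels in these comparisons are TMM-normalized CPM. The 3 libraries are of different genotypes and serve as the replicates here, so p-values measure the spread between these samples, and each class sum of a library comes from the same cell suspension. The TMM scale sets the typical gene equal between classes, and the median log2 fold change of all genes was between -0.11 and 0.00.

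More of the 37 genes were higher in the other classes than in beta-like cells than were lower. Alpha-like cells had 19 higher and 1 lower (24.6% and 26.6% of all genes), delta-like cells 13 and 1 (19.8% and 21.1%), gamma-like cells 9 and 3 (16.4% and 19.5%) and endothelial-like cells 17 and 4 (33.4% and 38.1%). The median log2 fold change of the 37 genes was 0.24, 0.18, 0.12 and 0.25 in that order. In these data 5 members, Snrpb, Snrpd1, Snrpd3, Snrpg and Hnrnpm, were higher in all 4 classes, and 7 (Hnrnpa3, Hnrnpdl, Hnrnpl, Hnrnpu, Sf1, Sf3b2 and U2af1) were called in none. The same counts over all genes were not made, and the 4 tests share the beta-like sums, so these counts have no background beside them. Without the library labelled SC35-KO the numbers higher were 11 in alpha-like cells, 4 in delta-like cells and 4 in gamma-like cells. Of all 12605 genes 2060, 1681 and 1220 were then higher in that order, so the members' share in delta-like cells was below that of all genes. Without WT 8 members were higher in delta-like cells and 5 in gamma-like cells, and 0 were lower in either. Of all 12711 genes 2168 and 1512 were then higher and 2280 and 1803 lower. The scale also matters: of the genes called higher, 11 of 19 in alpha-like cells, 13 of 13 in delta-like cells, 8 of 9 in gamma-like cells and 7 of 17 in endothelial-like cells were higher in each of the 3 libraries when UMIs were only divided by the total without hormone and mitochondrial genes.

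Among the Sm ring, the hnRNPs and the other spliceosome genes, the Sm ring had the largest share of genes higher in each class, with 7 of 7 higher in alpha-like, 5 of 7 in delta-like cells, 6 of 7 in gamma-like cells and 5 of 7 in endothelial-like cells, the last with 1 lower. The share of all genes higher was 24.6%, 19.8%, 16.4% and 33.4% in that order, and 38.1% were lower in endothelial-like cells. Snrpf in alpha-like cells was at 147, 104 and 213 normalized CPM (WT, ASF-KO and SC35-KO), against 60.1, 60.4 and 89.8 in beta-like cells, a log2 fold change of 1.10 ± 0.13 (SE, edgeR adjusted p = 8.0e-08). All 3 alpha-like values exceeded the beta-like ones. Snrpd1 followed with 63.9, 59.5 and 85.5 against 31.1, 39.9 and 40.6 (0.89 ± 0.11, adjusted p = 5.4e-07 in edgeR). In delta-like cells Snrpd1 (57.5, 52.7 and 67.8) had the largest value, 0.67 ± 0.12 with an edgeR adjusted p of 9.9e-05, and Snrpf (107, 75.9 and 135) was at 0.57 ± 0.13. In gamma-like cells the largest were Snrpf (126, 83.7 and 137, at 0.71 ± 0.13), Snrpd3 (58.8, 50.5 and 59.1, at 0.58 ± 0.12) and Snrpd1 (57.1, 45.0 and 63.8, at 0.58 ± 0.13).

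In endothelial-like cells the largest difference of all was in Snrpb, at 162, 162 and 170 normalized CPM against 50.8, 63.7 and 56.0 in beta-like cells. Its log2 fold change was 1.54 ± 0.10 (edgeR adjusted p = 1.9e-12), and the classes did not overlap. Snrpn, a near relative of Snrpb on another chromosome that is not among the 37 genes and is known for its expression in brain, was at 6 UMIs in each library in endothelial-like cells, which is 2.81, 4.02 and 5.37 CPM, against 23.3, 17.3 and 19.7 in beta-like cells and 75.9, 67.6 and 72.9 in delta-like cells. Snrpn had a log2 fold change of -3.49 ± 0.20 in endothelial-like and 0.73 ± 0.10 in delta-like against beta-like cells (edgeR adjusted p = 1.6e-13 and 3.8e-06). Its annotation shares transcripts with Snurf, so the 2 cannot be told apart at the 3′ end. Snrpd2 was the Sm gene lower in endothelial-like cells, with 99.5, 52.4 and 74.5 against 99.0, 83.3 and 110.4 (-0.38 ± 0.12, edgeR adjusted p = 0.0073). WT did not show this direction, and the call was lost without the library labelled ASF-KO (-0.25).

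**Figure D5:**
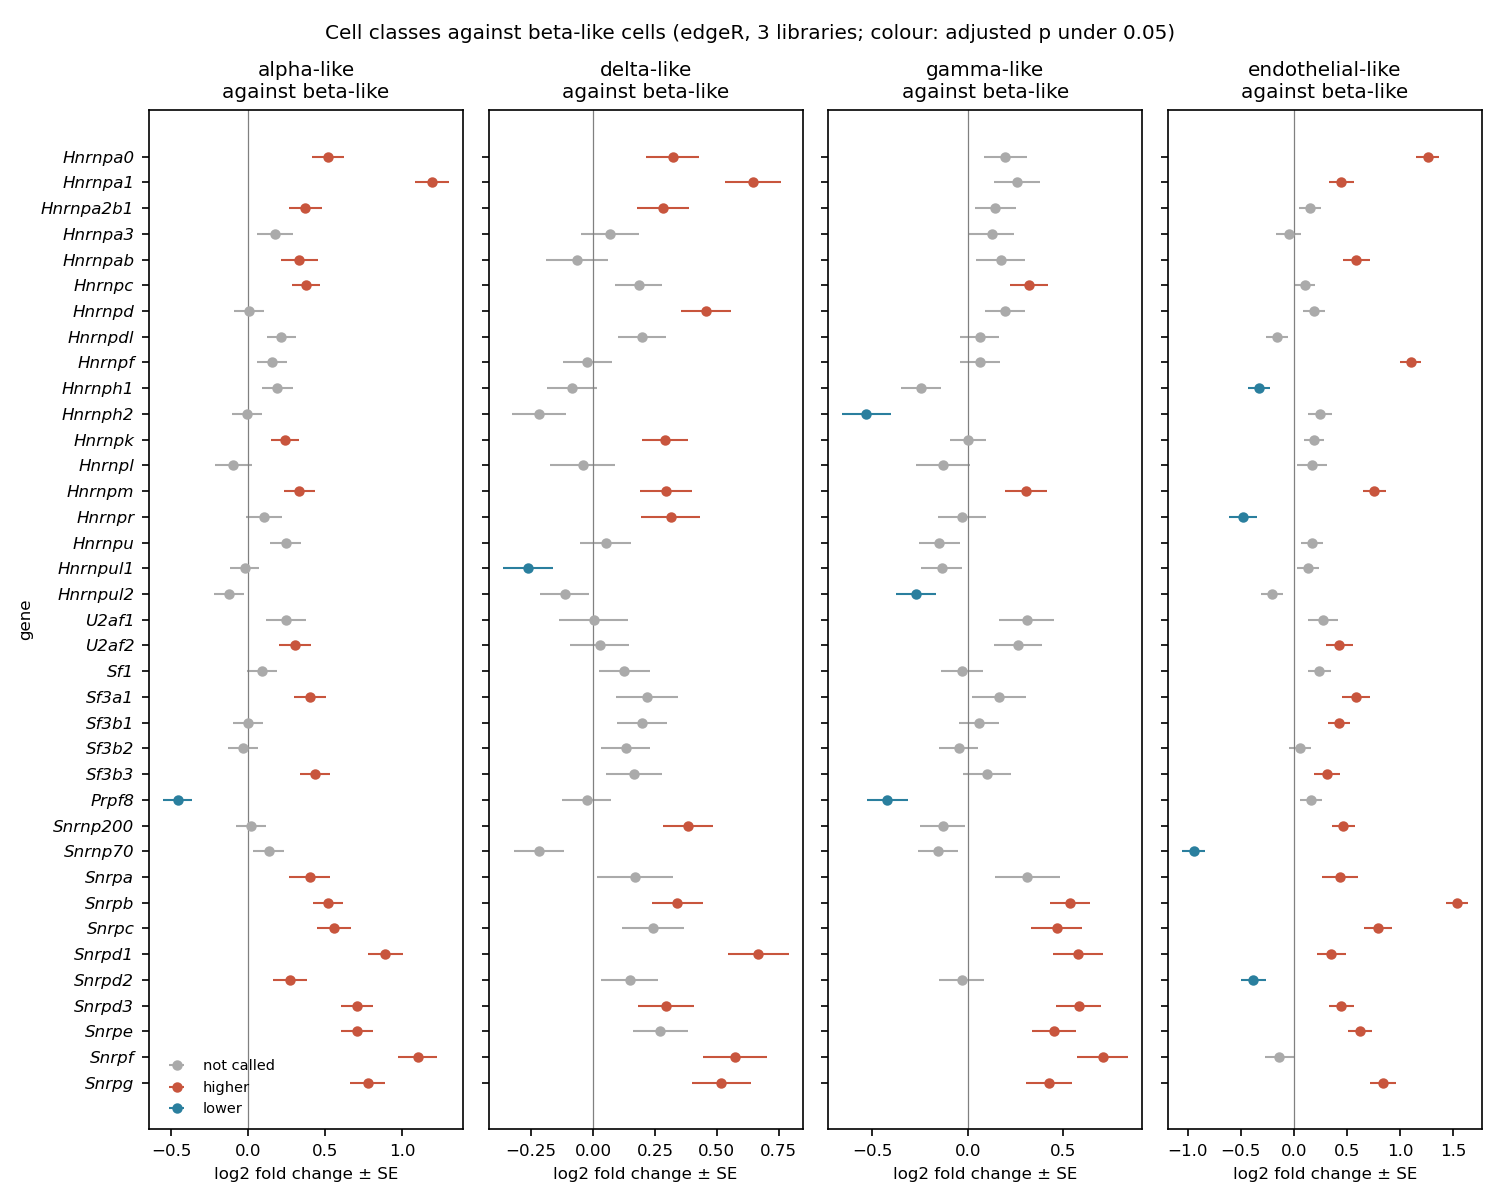
Log2 fold change ± SE of the 37 genes (rows) in alpha-like cells, delta-like, gamma-like and endothelial-like against beta-like cells, from edgeR over 3 libraries; red is higher and blue lower at an adjusted p under 0.05, grey is not called. Horizontal axes differ in range, with extremes at 1.54 (Snrpb) and -0.95 (Snrnp70) in endothelial-like cells.

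Of the 18 hnRNP genes, 7 were higher in alpha-like cells, 7 in delta-like with 1 lower, 2 in gamma-like with 2 lower and 5 in endothelial-like cells with 2 lower. Among all genes 24.6%, 19.8%, 16.4% and 33.4% were higher and 26.6%, 21.1%, 19.5% and 38.1% lower in that order. Hnrnpa1 had the largest difference of any member in alpha-like cells, at 164, 105 and 161 normalized CPM against 63.6, 56.5 and 65.7 in beta-like cells (1.19 ± 0.11, edgeR adjusted p = 2.3e-09). It was also higher in delta-like (0.65 ± 0.11, edgeR adjusted p = 6.1e-05) and endothelial-like cells (0.45 ± 0.12, edgeR adjusted p = 0.0018), and at 0.26 ± 0.12 in gamma-like cells it missed the threshold (adjusted p = 0.10). In endothelial-like cells Hnrnpa1 was not higher in every library when UMIs were only divided by the total without hormone and mitochondrial genes. Hnrnpa2b1 was at 273, 416 and 314 in alpha-like cells against 199.5, 322 and 256 in beta-like cells (0.37 ± 0.10, edgeR adjusted p = 0.0049). In these cells the spread between libraries was wider than the difference between classes, and the call was lost without SC35-KO. Hnrnpa2b1 there was also not higher in every library on the total without hormone and mitochondrial genes. Hnrnpa2b1 in delta-like cells was at 0.28 ± 0.11 (edgeR adjusted p = 0.036), which was lost without each of the 3 libraries in turn.

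Endothelial-like cells had more Hnrnpa0 (136, 158 and 183 against 57.2, 73.5 and 67.6, a log2 fold change of 1.26 ± 0.11 with an edgeR adjusted p of 1.9e-10) and Hnrnpf (150.1, 202 and 202 against 74.0, 89.5 and 93.5, at 1.10 ± 0.10 with an adjusted p of 6.4e-10). In both genes all 3 libraries were above all beta-like values. Hnrnpr, which is related to SYNCRIP, was lower in endothelial-like cells (53.1, 51.4 and 62.2 against 74.7, 77.4 and 80.4, at -0.48 ± 0.13) and higher in delta-like cells (0.31 ± 0.12). In gamma-like cells Hnrnph2 was the lowest member, with 18.3, 29.1 and 26.5 against 30.9, 37.1 and 36.7 (-0.53 ± 0.13, edgeR adjusted p = 0.0019), but not without WT. Hnrnpul1 in delta-like cells (-0.26 ± 0.10, edgeR adjusted p = 0.040) was lost without each library in turn, and Hnrnpul2 in gamma-like cells (-0.27 ± 0.10, edgeR adjusted p = 0.047) without WT and without SC35-KO.

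The other 12 spliceosome genes had 5 higher and 1 lower in alpha-like (24.6% and 26.6% of all genes), 1 and 0 in delta-like cells (19.8% and 21.1%), 1 and 1 in gamma-like cells (16.4% and 19.5%) and 7 and 1 in endothelial-like cells (33.4% and 38.1%). Snrnp70 was lower in endothelial-like cells, at 83.9, 83.8 and 72.5 normalized CPM against 152, 155 and 153.9 in beta-like cells (-0.95 ± 0.11, edgeR adjusted p = 3.9e-08), with no overlap between the classes. It was at 0.13 ± 0.10, -0.22 ± 0.10 and -0.16 ± 0.10 in alpha-like cells, delta-like and gamma-like cells, none of them past the threshold in edgeR. Prpf8, the scaffold of the catalytic core, was lower in alpha-like cells (45.6, 53.0 and 38.2 against 63.7, 70.0 and 53.6, at -0.46 ± 0.09 with an edgeR adjusted p of 0.00026) and in gamma-like cells (-0.42 ± 0.11, edgeR adjusted p = 0.0035, lost without WT). U2af2 was higher in alpha-like (0.30 ± 0.11) and endothelial-like cells (0.43 ± 0.12), and U2af1 was called in no class, with values from 0.00 to 0.31. Sf3b1 was higher in endothelial-like cells, with 181, 162 and 165 against 132, 138 and 109 (0.43 ± 0.10, edgeR adjusted p = 0.00075, lost without SC35-KO), and was not called in the other classes. Divided only by the total without hormone and mitochondrial genes, Sf3b1 in endothelial-like cells was not higher in every library. Nor was U2af2 in alpha-like or endothelial-like cells.

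Genes outside the 37 give the setting. Of 70 other spliceosome genes, all tested, 22 were higher and 8 lower in alpha-like, 13 and 6 in delta-like cells, 21 and 4 in gamma-like cells and 33 and 12 in endothelial-like cells than in beta-like cells. Of 26 other hnRNP-type genes, 8 were higher and 3 lower, 4 and 2, 6 and 5, and 6 and 7 in the same order. Over all genes tested, 24.6%, 19.8%, 16.4% and 33.4% were higher and 26.6%, 21.1%, 19.5% and 38.1% lower. Raly, the nearest relative of Hnrnpc, had 1.99 in endothelial-like cells, and Ptbp3, a relative of the polypyrimidine tract binding protein, had -1.09 in alpha-like and -1.03 in gamma-like cells. Against WT, of the 49 other spliceosome genes measured in beta-like cells, 3 were higher and 2 lower under ASF-KO (8.80% and 7.91% of all genes). The lowest ratios relative to the median gene were in Snrpb2 (0.523), which encodes a U2 protein, and Snrnp27 (0.597), a U4/U6.U5 protein. In alpha-like cells Snrnp27 (0.497) and Snrpb2 (0.575) were again the lowest of 65. Of these, 3 were higher and 3 lower (3.74% and 6.12% of all genes), and Ddx23 (1.68) and Cwc22 (1.65) were the highest. In endothelial-like cells 2 of 68 were higher and 9 lower under ASF-KO, with a median of -0.20 on the log2 scale, beside 8.84% and 11.7% of all genes. Of the other hnRNP-type genes, 0 of 25 were higher and 1 lower in beta-like cells under ASF-KO, beside 8.80% and 7.91% of all genes. Their median log2 ratios relative to the median gene were -0.14, -0.06, 0.06, -0.03 and -0.02 in beta-like, alpha-like, delta-like, gamma-like and endothelial-like cells.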

How the data were processed

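Islet cells of 3 genotypes were measured with Chromium 3′ chemistry, 1 library each. The authors deposited raw UMI counts per gene and barcode from Cell Ranger 5.0.0 with STAR on mm10, per the submitters' processing notes; whether introns were counted is not given in the sources used here. From these counts, barcodes under 500 genes or 1000 UMIs, or with over 20% mitochondrial UMIs, were dropped, Scrublet doublets were removed, and cells were gated by Ins1 and Ins2 (20% of UMIs), Gcg, Sst or Ppy (5%) or endothelial markers (0.3%). Ungated cells and classes under 100 cells in a library were left out. Sums per class and library were compared as CPM with exact 95% intervals (scipy 1.17.1), and classes with edgeR 4.0.16 (TMM, quasi-likelihood, R 4.3.3), which was tested on simulated data. DESeq2 1.42.0 was an alternative. Ratios use genes at 10 CPM or more. Named are the 3 highest and 3 lowest members per comparison, those called in class tests likewise, and 7 genes always. Members and lists were chosen with earlier results of these data known. Library numbers do not pair samples across genotypes; class sums of 1 library are paired through their cell suspension.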

Additional observations from a re-analysis of the deposited data

How the results depend on the processing

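Depth limits the gamma-like and endothelial-like values most, where single genes rest on as few as 27 UMIs. Counts of members below are given as higher or lower by 1.5-fold. Between libraries the share of all genes past 1.5-fold was counted only for genes of like length and, in part, for plain CPM. The other counts between libraries have no background beside them. Over all alternatives 195 such counts between libraries were within 1.5 times of the value reported and 69 were not, and of the counts called in class tests 73 were and 23 were not. Between genotypes no paired analysis was possible because each has 1 library, and the class tests carry the library as a block. Without centring, CPM ratios gave 0 higher and 8 lower (ASF-KO) and 0 higher and 9 lower (SC35-KO) in beta-like cells, 2 higher (ASF-KO) and 1 lower (SC35-KO) in alpha-like cells, 13 and 1 (ASF-KO) and 0 and 2 (SC35-KO) in gamma-like cells and 1 higher (ASF-KO) in endothelial-like cells. Totals without hormone and mitochondrial genes gave 3 and 1 in alpha-like cells, 3 and 1 in delta-like cells, 9 and 1 in gamma-like cells and 1 higher in endothelial-like cells for ASF-KO, and 3 and 0 in gamma-like cells for SC35-KO. Median-of-ratios factors, and likewise no minimum level, gave 4 higher in beta-like and 2 in alpha-like cells for ASF-KO, 0 higher in beta-like cells for SC35-KO and 1 higher and 2 lower between the libraries labelled KO.

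Thinning each cell to 2000 UMIs gave for ASF-KO 3 higher in beta-like, 5 in alpha-like cells, 5 in delta-like cells and 2 in endothelial-like cells and 5 lower in gamma-like cells. For SC35-KO it gave 0 higher and 1 lower in beta-like, 1 lower in alpha-like, 2 and 1 in delta-like cells and 4 and 6 in gamma-like cells, and 3 lower between the libraries labelled KO. How many of all genes passed 1.5-fold after thinning was not counted, so these counts are not a result about the members. U2af2 in delta-like cells under ASF-KO went from -0.61 to 0.0029. In the class tests thinning left 0 lower in alpha-like, 0 in delta-like cells and 1 in gamma-like cells, beside 2092, 1446 and 833 of all 10235 genes. Snrnp70 in gamma-like cells went from -0.16 to 0.033. The cause was not tested. Keeping doublets gave 2 higher in alpha-like cells and 1 lower in gamma-like cells (ASF-KO), 0 higher in gamma-like cells and 1 in endothelial-like cells (SC35-KO). In the delta-like class test it left 0 lower, beside 2716 of all 12839 genes. A looser cell filter gave 2 higher in alpha-like cells (ASF-KO) and 0 in beta-like cells (SC35-KO). A stricter one gave 1 higher in endothelial-like and 1 lower in gamma-like cells (ASF-KO) and 0 higher in gamma-like cells (SC35-KO). Stricter gates gave 2 higher in alpha-like (ASF-KO) and 2 in gamma-like cells (SC35-KO). Means over cells gave for ASF-KO 2 higher in alpha-like, 3 in gamma-like cells and 1 in endothelial-like cells, and for SC35-KO 0 higher in beta-like, 0 lower in gamma-like cells and 1 higher in endothelial-like cells. A minimum of 50 CPM gave 1 lower in gamma-like cells (ASF-KO), 0 higher in beta-like and 0 lower in endothelial-like cells (SC35-KO) and 1 higher between the libraries labelled KO. Centring on genes of like transcript length, chosen after seeing the data, gave 0 higher in beta-like and 1 lower in gamma-like cells (ASF-KO), 0 higher in beta-like and 2 in gamma-like cells (SC35-KO) and 1 higher between the libraries labelled KO. The shares of all genes were 8.38% and 10.0% (ASF-KO), 2.34% and 4.74% (SC35-KO) and 5.58% (between the libraries labelled KO) in that order.

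In the class tests the fit without the replicate block of libraries called 10 higher in alpha-like, 2 higher and 0 lower in delta-like cells, 4 and 1 in gamma-like cells and 2 lower in endothelial-like cells. Of all 12797 genes it called 1957 higher in alpha-like cells and 1705 higher and 1800 lower in delta-like cells. It called 1331 and 1647 in gamma-like cells and 4383 lower in endothelial-like cells. The share of members higher in delta-like cells was thus below that of all genes. DESeq2, and edgeR with RLE factors, each called 26 higher in endothelial-like and 0 lower in delta-like cells. Over all genes DESeq2 called 5003 of 16753 and 2317 of 16408 in that order, and RLE factors 4648 and 2370 of 12797. With no filter on low counts 5 were higher in delta-like cells, beside 2529 of all 21975 genes. Leaving out each library in turn gave 11 to 19 higher in alpha-like, 4 to 14 higher and 0 to 1 lower in delta-like cells and 4 to 9 higher and 0 to 4 lower in gamma-like cells. Of all 12605 to 12964 genes 2060 to 3022 were then higher in alpha-like cells. In delta-like cells 1681 to 2453 were higher and 1765 to 2550 lower, and in gamma-like cells 1220 to 2145 and 1493 to 2397.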
